A study of Mus musculus with 49 samples.

Results

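The transcripts described here are the messenger RNAs of the respiratory chain that are encoded in the mitochondrial genome itself, measured in 49 mouse CT26 tumours. The 10 genes are mt-Nd1, mt-Nd2, mt-Nd4, mt-Nd5 and mt-Nd6 (complex I), mt-Cytb (complex III), mt-Co1, mt-Co2 and mt-Co3 (complex IV) and mt-Atp6 (ATP synthase, complex V), found by their symbols among the 39179 genes of the count table. All 10 had a row, and 7 of them passed the filter on low counts: mt-Co2, mt-Co3 and mt-Atp6 did not. The set was chosen by the measured change of its counted genes in tumours given the combination relative to tumours given vehicle. Changes in that contrast are therefore a description without p-values, and so are those in the other contrasts with vehicle, which use the same vehicle tumours. Nothing is read from the counts of calls printed for these contrasts.

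CT26 is a colon carcinoma line of Balb/c mice, and the tumours were profiled by QuantSeq, a method that reads 1 end of each polyadenylated RNA. Treatment began on day 7 and lasted 7 days: 16 tumours received an antibody against PD-1 together with celecoxib, an inhibitor of cyclooxygenase (the combination), 17 received anti-PD-1, 7 received celecoxib and 9 received the vehicle of DMSO-PEG400 and water. Celecoxib was given daily at 30 mg/kg and anti-PD-1 in 2 doses of 200 µg. Each tumour is further marked R or NR, without a definition: 12 of the 16 combination tumours and 4 of the 17 anti-PD-1 tumours are marked R, and every celecoxib and vehicle tumour is marked NR. Nothing says that the tumours came from separate animals, so the p-values cover only the spread among the samples, which may in part be technical. The labels give the sampling as day 7 in one place and as an extraction on day 4 in another, and this was not settled.

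Libraries held 4251251 to 13671294 counts (median 7670623). The defining markers of colonic epithelium were low: Cdx1, Cdx2 and Vil1 had a median of 0 CPM, Epcam of 0.183 CPM and Krt18 of 12.2 CPM. Levels are in CPM, counts scaled to the library size after TMM normalization. In 12 tumours the marker lists of skeletal muscle, adipocytes or skin were high: 4 combination tumours, 5 anti-PD-1 tumours, 2 celecoxib tumours and 1 vehicle tumour. In bulk tumours, fewer cells of a type and less RNA per cell cannot be told apart.

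The mitochondrial genome is a small circle, transcribed in full from each strand. The long transcripts are cut into mRNAs, ribosomal RNAs and transfer RNAs, and the mRNAs other than mt-Nd6 receive short poly(A) tails, which in several cases complete the stop codon. The encoded proteins are the membrane cores of complexes I, III, IV and V, around which many more subunits made from nuclear genes assemble. Complex I takes electrons from NADH, complex III passes them to cytochrome c, complex IV gives them to oxygen, and complex V uses the proton gradient to make ATP.

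Transcripts of 3 of the 10 genes were almost not counted. mt-Co2, which encodes the copper-binding subunit of complex IV, and mt-Co3, a further core subunit, had 0 counts in 49 of 49 tumours. mt-Atp6, the proton channel subunit of ATP synthase, had 1 count in 1 vehicle tumour and 0 in the other 48. These zeros set no upper limit on the RNA level, since the 3 transcripts have near-identical nuclear copies and the handling of multiply aligned reads is unknown. Of the genes on the same chromosome outside the 10, mt-Atp8 and mt-Nd4l also had 0 counts in 49 of 49 tumours, and mt-Nd3 had 0 to 26 counts. The remaining members had many counts in every tumour, from 12013 to 78872 for mt-Nd1, 5215 to 57812 for mt-Nd2, 12374 to 192403 for mt-Nd4, 1232 to 8450 for mt-Nd5, 2060 to 11891 for mt-Co1 and 11322 to 91304 for mt-Cytb. Only mt-Nd6, the one mitochondrial protein gene on the minus strand, was low at 1 to 134 counts (median 25).

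The 3 members with almost no counts each have a perfect copy in the nuclear genome over nearly their whole length. Alignment of the GENCODE vM21 transcripts (GRCm38) placed 7 copies in one block of chromosome 1, between bases 24611535 and 24616197 on the minus strand. Gm28661 matched bases 1 to 681 of the 684 of mt-Co2 (chrM:7013-7696, plus strand) at 100% identity, Gm28437 matched bases 1 to 783 of the 784 of mt-Co3 (chrM:8607-9390, plus strand) at 100%, and Gm10925 matched bases 1 to 678 of the 681 of mt-Atp6 (chrM:7927-8607, plus strand) at 100%. The 3′ ends of these transcripts, where this assay reads, are printed with their copies. The capitals mark the bases that lie outside the copy: the stop codon of mt-Co2 and of mt-Atp6, and the lone T at the end of mt-Co3.
mt-Co2: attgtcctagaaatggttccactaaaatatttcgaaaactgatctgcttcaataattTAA
Gm28661: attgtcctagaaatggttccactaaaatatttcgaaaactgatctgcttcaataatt
mt-Co3: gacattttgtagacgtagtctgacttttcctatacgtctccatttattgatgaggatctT
Gm28437: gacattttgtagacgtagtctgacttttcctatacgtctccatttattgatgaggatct
mt-Atp6: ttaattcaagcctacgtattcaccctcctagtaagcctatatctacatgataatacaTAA
Gm10925: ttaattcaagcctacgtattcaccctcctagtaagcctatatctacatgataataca

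The 3′ ends of the other mitochondrial protein transcripts can be set beside their counts. mt-Nd4l and mt-Nd3 have copies on chromosome 1 at 100% and 99.7% identity that stop 3 bases before their ends, and mt-Atp8, which overlaps mt-Atp6, has its last 43 bases inside a copy. mt-Nd4, a complex I subunit with at least 12374 counts in every tumour, has a perfect copy over bases 1 to 876 of its 1378 (Gm28439), and its last 502 bases lie outside it. mt-Co1, the catalytic subunit of complex IV, had at least 2060 counts, and Gm29216 covers its bases 1063 to 1545 with 1 difference, A1066T, counted from 1 at the 5′ end of the mt-Co1 transcript with the mt-Co1 base first. The last 479 bases of mt-Co1 are the same in both. The edge of the copy in mt-Nd4 (bases 847 to 906, capitals outside the copy) and the stretch of mt-Co1 with its difference (bases 1063 to 1086, in capitals) are printed to show where these counted transcripts and their copies part.
mt-Nd4: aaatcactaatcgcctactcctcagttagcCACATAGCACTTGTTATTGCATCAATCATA
mt-Co1: ggaAttgttttatccaactcatcc
Gm29216: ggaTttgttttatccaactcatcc

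Of the 7 copies on chromosome 1, only Gm10222, the copy of mt-Nd4l, had a row in the count table, with 0 to 2 counts. The other copies were not analysed here, and their part in the zeros was not tested. The sources used here do not say how reads with more than one alignment were treated. Copies elsewhere are less alike: Gm13340 on chromosome 2 matches mt-Co1 at 97.6% and had 14 to 120 counts, Gm13341 on the same chromosome matches mt-Co2 at 95.9% and had 17 to 134 counts, and Gm4076 on chromosome 13 matches mt-Nd5 at 95.2% with 0 to 12 counts. Among the annotated transcripts, the only sequences searched, mt-Nd1 had no same-strand copy of 85% identity or more. Levels of the 7 counted members and of the 3 at 0 therefore cannot be ranked against each other, and only differences between tumours are described from here on.

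**Figure D1:**
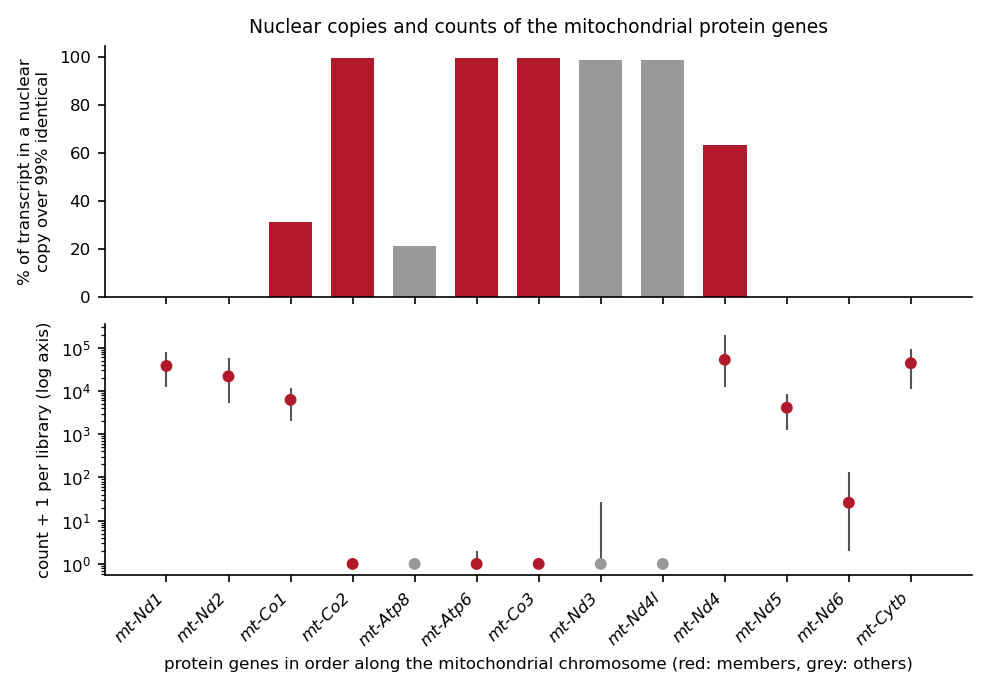
Percent of each mitochondrial protein transcript covered by its chromosome 1 copy, and the counts of the same gene over 49 tumours (log axis). mt-Co2, mt-Co3 and mt-Atp6 are covered over 99.6% to 99.9% of their length and stand at or near 0. mt-Co1 and mt-Nd4 are covered over 31.3% and 63.6% and were counted, while mt-Atp8 is covered over 21.1% and stands at 0.

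Among the complex I transcripts, mt-Nd5, mt-Nd2 and the low mt-Nd6 differed most between treatments and mt-Nd1 least. mt-Nd5, a large proton-pumping subunit, had 326 to 1252 CPM in combination tumours (median 849), 311 to 995 CPM in anti-PD-1 tumours (median 434), 338 to 705 CPM with celecoxib (median 385) and 236 to 463 CPM with vehicle (median 322). All 16 combination tumours lay above the vehicle median and 12 of them above the highest vehicle tumour, so that the groups overlapped over the lower 4 combination tumours. Of the 17 anti-PD-1 tumours, 16 were above the vehicle median and 8 above the highest vehicle tumour. All 7 celecoxib tumours were above that median and 3 above the highest. The group means were 783 ± 313 CPM (SD, n = 16) for the combination, 479 ± 173 CPM (n = 17) for anti-PD-1, 477 ± 155 CPM (n = 7) for celecoxib and 331 ± 61.8 CPM (n = 9) for vehicle. As log2 changes against vehicle, these were 1.24 (SE 0.21) for the combination, 0.53 (SE 0.20) for anti-PD-1 and 0.53 (SE 0.24) for celecoxib.

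mt-Nd2, a further proton-pumping subunit of complex I, followed mt-Nd5 closely. It had 1194 to 7534 CPM in combination tumours (median 4938), 1464 to 7946 CPM in anti-PD-1 tumours (median 2668), 1229 to 5151 CPM with celecoxib (median 2486) and 997 to 3203 CPM with vehicle (median 1935). The combination tumours were widely spread: 10 of 16 were above the highest vehicle tumour, and 3 were below the vehicle median. The log2 changes against vehicle were 1.23 (SE 0.31) for the combination, 0.70 (SE 0.30) for anti-PD-1 and 0.56 (SE 0.36) for celecoxib.

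mt-Nd1, which lies beside the quinone site of complex I, had largely overlapping ranges in the treatments. It had 2854 to 6002 CPM in combination tumours (median 4753), 2597 to 6615 CPM in anti-PD-1 tumours (median 5483), 3326 to 7005 CPM with celecoxib (median 4875) and 2298 to 6377 CPM with vehicle (median 4697). No combination tumour lay above the highest or below the lowest vehicle tumour, while 2 of 17 anti-PD-1 and 1 of 7 celecoxib tumours lay above the highest. The log2 changes against vehicle were 0.05 (SE 0.14), 0.17 (SE 0.14) and 0.12 (SE 0.17) for the combination, anti-PD-1 and celecoxib. Relative to mt-Nd1 in the same tumour, mt-Nd5 had a log2 ratio of −2.69 ± 0.69 in combination tumours, −3.45 ± 0.56 in anti-PD-1 tumours, −3.40 ± 0.71 in celecoxib tumours and −3.76 ± 0.24 in vehicle tumours. This ratio does not depend on the library size. Transcripts of the same complex, read from the same strand, thus did not keep one proportion between tumours.

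mt-Nd4, another pumping subunit of complex I, had 3267 to 16049.7 CPM in combination tumours (median 7279), 4073 to 13922 CPM in anti-PD-1 tumours (median 6495), 4373 to 11487 CPM with celecoxib (median 5730.3) and 2367 to 13869 CPM with vehicle (median 5017). Every group was widely spread, and the treatments overlapped. mt-Nd6, a small membrane subunit, had 6.32 ± 4.87 CPM in combination tumours, 4.38 ± 4.71 CPM in anti-PD-1 tumours, 4.14 ± 2.97 CPM with celecoxib and 2.36 ± 1.31 CPM with vehicle, with a wide spread in every group and 9 of 16 combination tumours above the highest vehicle tumour. In the annotation the last 14 bases of mt-Nd5 and of mt-Nd6 overlap on opposite strands. The sources used here do not give the strand setting of the counting. Whether the mt-Nd6 counts hold reads from the opposite strand was not tested. The log2 changes against vehicle were 0.46 (SE 0.25), 0.40 (SE 0.25) and 0.18 (SE 0.30) for mt-Nd4, and 1.41 (SE 0.55), 0.86 (SE 0.54) and 0.80 (SE 0.64) for mt-Nd6, for the combination, anti-PD-1 and celecoxib in that order. Without vehicle replicate 2 the changes of mt-Nd4 were 0.74, 0.69 and 0.47, and without celecoxib replicate 5 the last was −0.02. With the cytosolic ribosomal protein share of each library as a covariate those of mt-Nd6 were 0.00, 0.26 and −0.08, and limma-voom gave 0.06 for anti-PD-1.

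mt-Cytb, cytochrome b of complex III, also changed less than mt-Nd5 between treatments. Above its highest vehicle tumour lay 4 of 16 combination, 7 of 17 anti-PD-1 and 1 of 7 celecoxib tumours. It had 3549 to 8442 CPM in combination tumours (median 5683), 2650.2 to 8571 CPM in anti-PD-1 tumours (median 6346), 4257 to 10452 CPM with celecoxib (median 5963) and 2165 to 6582 CPM with vehicle (median 5246). Its log2 change against vehicle was 0.25 (SE 0.18) for the combination, 0.29 (SE 0.18) for anti-PD-1 and 0.34 (SE 0.21) for celecoxib. mt-Co1 of complex IV had 625 to 1639 CPM in combination tumours (median 1001), 467 to 1347 CPM in anti-PD-1 tumours (median 621), 464 to 1037 CPM with celecoxib (median 686) and 376 to 991 CPM with vehicle (median 637). Of the 16 combination tumours, 15 were above the vehicle median and 9 above the highest vehicle tumour. Its log2 change against vehicle was 0.74 (SE 0.17) for the combination, 0.26 (SE 0.17) for anti-PD-1 and 0.16 (SE 0.20) for celecoxib.

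**Figure D2:**
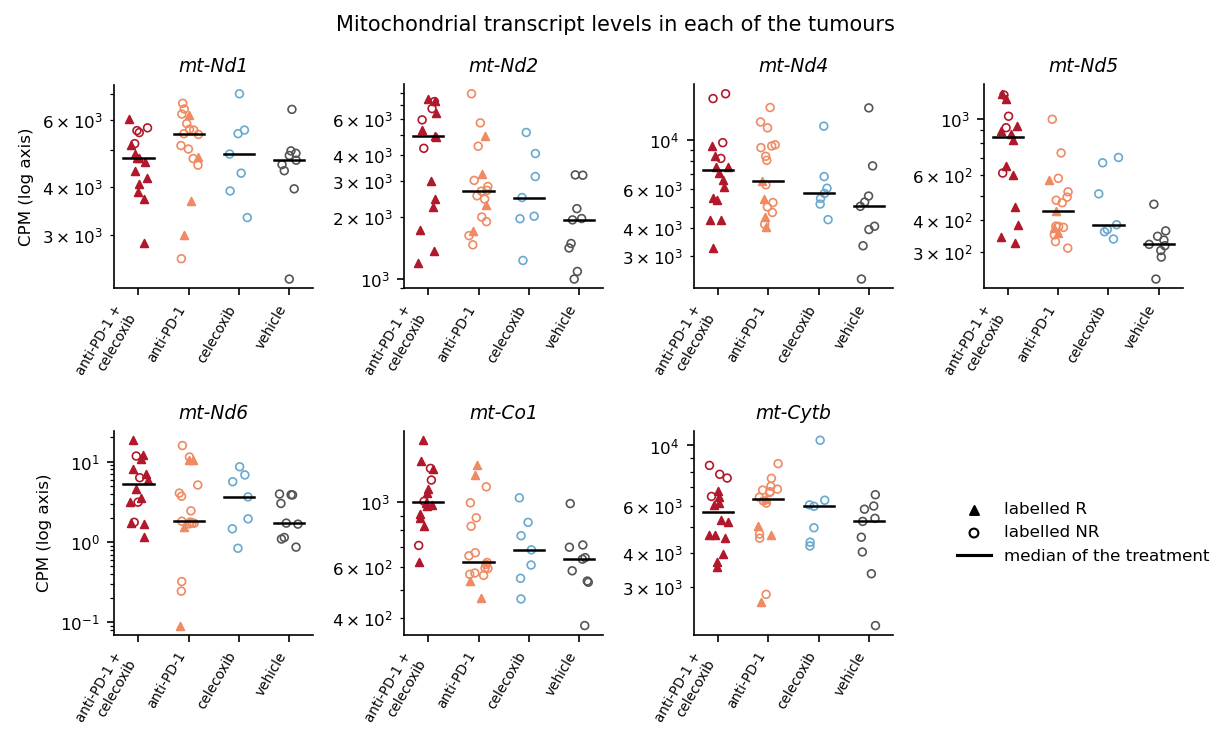
Level of each counted transcript in each tumour (CPM, log axis) by treatment, with filled points for tumours labelled R, open points for NR and a line at the group median. For mt-Nd5 the 16 combination tumours all lie above the vehicle median of 322 CPM, while for mt-Nd1 the treatments cover largely overlapping ranges.

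Over the 7 counted members, the median log2 change against vehicle was 0.74 for the combination, 0.40 for anti-PD-1 and 0.34 for celecoxib, with 7 of 7 positive each time, and the median over all 13726 tested genes was 0.01 or less in size. The 3 contrasts share the vehicle tumours, and the first is the one that chose the genes. As a description of that selecting contrast, 1 of 7 members, mt-Nd5, was among the 0.0729% of tested genes with an adjusted p under 0.05 in edgeR's quasi-likelihood test. For anti-PD-1 against vehicle 0 of 7 members did, beside 0.0874% of all genes, and 478 genes had an unadjusted p under 0.05. For celecoxib against vehicle 0 of 7 did, beside 0% of all genes, and 314 genes had an unadjusted p under 0.05.

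Set against anti-PD-1 alone, the combination had higher mt-Nd5, and no other member passed the test. The log2 change of mt-Nd5 was 0.71 (SE 0.17, edgeR quasi-likelihood adjusted p = 0.0364), and 13 of 16 combination tumours were above the anti-PD-1 median of 434 CPM. The combination tumours of this contrast are those that chose the genes, so its p is not independent support. 1 of 7 members was called, where 0.503% of all 13726 genes were. mt-Co1 differed by 0.48 (SE 0.14, adjusted p = 0.0771), with 16 of 16 combination tumours above the anti-PD-1 median of 621 CPM and only 2 above the highest anti-PD-1 tumour. mt-Nd2 differed by 0.53 (SE 0.25, adjusted p = 0.254) and mt-Nd6 by 0.55 (SE 0.43, adjusted p = 0.518). With the ribosomal protein share as a covariate these 2 changes were 0.21 and −0.26, and for mt-Nd6 limma-voom gave 1.08 and the fit without combination replicate 14 gave 0.35. The remaining members were near 0: 0.05 (SE 0.21) for mt-Nd4, −0.04 (SE 0.15) for mt-Cytb and −0.12 (SE 0.12) for mt-Nd1.

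The call of mt-Nd5 depended on single tumours and on the setting. It was called in 19 of the 33 fits that left out 1 tumour of either group, and lost without any one of anti-PD-1 replicates 3, 4, 5, 8, 9, 15 and 16 or of combination replicates 4, 6, 8, 9, 11, 14 and 16 (edgeR adjusted p 0.0506 to 0.0824). Without the 12 tumours with other tissue its log2 change was 0.79 and its adjusted p 0.0396. With the library share of cytosolic ribosomal protein genes as a covariate the log2 change was 0.41 and the adjusted p 0.677. The call was also lost with no filter on low counts, with a fit to the compared groups alone and in limma-voom (adjusted p 0.0611, 0.0908 and 0.0606). Muscle markers moved with this contrast, 23 of 24 being higher in combination tumours (median log2 change 1.49, 0 called by edgeR), and their summed level was 69.8 to 4450.4 CPM in combination tumours and 87.8 to 1110.0 CPM in anti-PD-1 tumours. mt-Co1 was called in the 2 fits without anti-PD-1 replicate 1 and without replicate 12.

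Set against celecoxib alone, the combination differed by 0.72 (SE 0.23) in mt-Nd5, 0.58 (SE 0.19) in mt-Co1 and 0.66 (SE 0.33) in mt-Nd2, and by −0.07 in mt-Nd1 and −0.08 in mt-Cytb. No member passed edgeR's test (smallest adjusted p 0.834), where 0.0364% of all genes did and 675 genes had an unadjusted p under 0.05. The combination tumours here too are those that chose the genes. Of the 5 called genes, 2 were the skin markers Sbsn (−2.84) and Krt10 (−2.28, edgeR adjusted p = 0.00824 for each). The skin list had 13 genes in the table and 3 tested, 0 of which were higher in the combination, and it averaged −0.82 to −0.41 log2 CPM in combination tumours and −0.81 to 6.88 log2 CPM in celecoxib tumours, with celecoxib replicate 3 the highest. Its part in the changes of the members was not tested. Without the tumours with other tissue the changes were 0.95 for mt-Nd5, 0.67 for mt-Co1 and 0.95 for mt-Nd2. Of the combination tumours, 9 of 16 were above the highest celecoxib tumour for mt-Nd5, and 7 of 16 for mt-Co1 and for mt-Nd2. The effect of celecoxib with anti-PD-1 was also set against its effect without anti-PD-1. This difference of differences was 0.18 (SE 0.30) for mt-Nd5, 0.32 (SE 0.25) for mt-Co1, −0.03 (SE 0.43) for mt-Nd2 and −0.38 (SE 0.26) for mt-Cytb. Without the tumours with other tissue it was 0.35 for mt-Nd5 and 0.28 for mt-Nd2, without celecoxib replicate 5 it was −0.19 for mt-Cytb, and for mt-Nd5 it ran from 0.10 to 0.30 when 1 tumour was left out. In edgeR's test 0 of 7 members and 0% of all genes were called, and 413 genes had an unadjusted p under 0.05. This contrast also uses the combination and vehicle tumours that chose the genes, so nothing is read from that count.

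**Figure D3:**
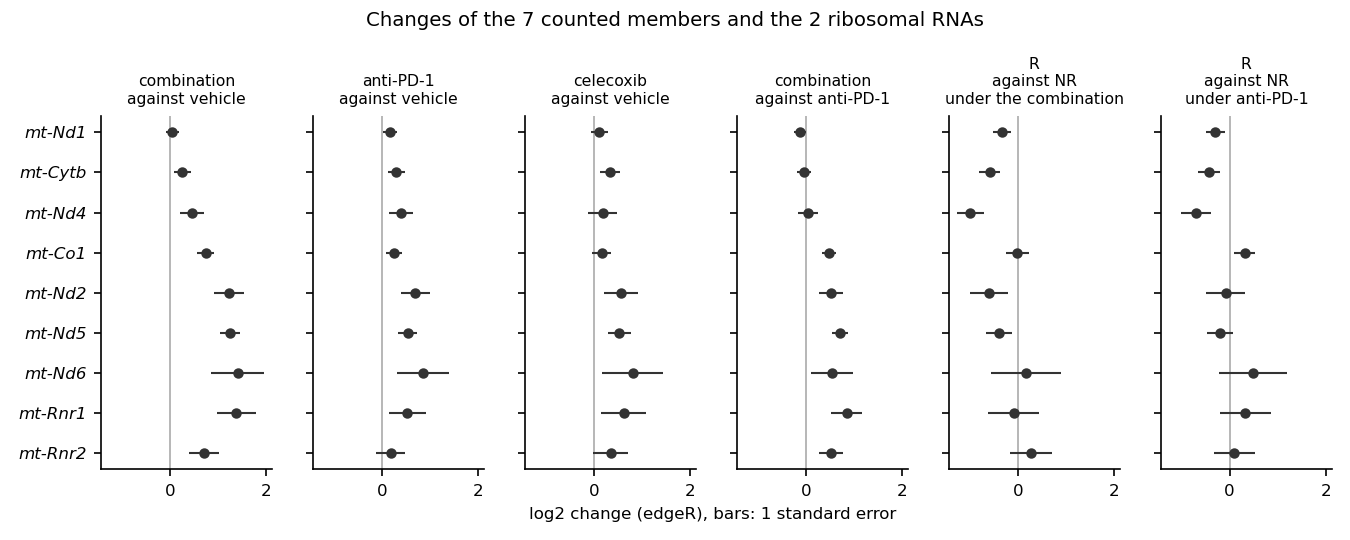
Log2 change of the 7 counted members and of the mitochondrial ribosomal RNAs in each of the main comparisons, with bars of 1 standard error from edgeR. mt-Nd5 stands at 1.24 for the combination against vehicle and 0.71 against anti-PD-1, and mt-Nd4 at −0.98 for R against NR under the combination.

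Within the combination, mt-Nd4, mt-Cytb and mt-Nd1 were lower in most tumours labelled R than in the 4 labelled NR, but no member passed the test. mt-Nd4 had 3267 to 9387 CPM in R tumours (median 6355) and 9685, 16049.7, 8227 and 15272 CPM in the 4 NR tumours. Every R tumour lay below the NR median, and 10 of 12 lay below the lowest NR tumour. Its log2 change was −0.98 (SE 0.29), and edgeR's adjusted p was 0.382. mt-Cytb had 3549 to 6773 CPM in R tumours (median 4942) and 7582, 8442, 6485 and 7830.1 CPM in NR tumours, with 11 of 12 R tumours below the lowest NR tumour, and a log2 change of −0.59 (SE 0.22, edgeR adjusted p = 0.452). mt-Nd1 had 2854 to 6002 CPM in R tumours (median 4535) and 5707, 5189, 5614 and 5546 CPM in NR tumours, also with 11 of 12 below the lowest, and a log2 change of −0.32 (SE 0.18, edgeR adjusted p = 0.585).

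mt-Nd2 had 1194 to 7534 CPM in R tumours (median 3954) and 6731, 7278, 5931 and 4314 CPM in NR tumours of the combination. Of the R tumours 6 of 12 lay below the lowest NR tumour and 2 above the highest, and the log2 change was −0.60 (SE 0.40, edgeR adjusted p = 0.636), or −0.27 without the tumours with other tissue. mt-Nd5 had 326 to 1252 CPM in R tumours and 1022, 922, 1238 and 613 CPM in NR tumours of the combination, and its log2 change was −0.39 (SE 0.27), or −0.13 without the tumours with other tissue. mt-Co1 averaged 1059 ± 273 CPM in R tumours (n = 12) and 1056 ± 262 CPM in NR tumours (n = 4), a log2 change of −0.01 (SE 0.23). The low mt-Nd6 had a positive log2 change, 0.18, or −0.13 without combination replicate 12. In edgeR's test 0 of 7 members were called and 0% of all 14247 genes of this fit, while 1298 genes had an unadjusted p under 0.05. Together the members took 2.10% ± 0.48 of all counts in R tumours and 3.30% ± 0.36 in NR tumours.

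Under anti-PD-1 alone mt-Nd4, mt-Cytb and mt-Nd1 had differences of the same sign, and none passed the test. mt-Nd4 had 4073, 6495, 5422 and 4515 CPM in the 4 R tumours and 4171 to 13922 CPM in the 13 NR tumours (median 8414), so that all 4 R tumours were below the NR median and 1 was below the lowest. Its log2 change was −0.70 (SE 0.31, edgeR adjusted p = 0.737), and −1.09 without the tumours with other tissue, which leaves 2 R tumours. mt-Cytb had 2650.2, 5038, 6346 and 4689.5 CPM in R tumours and 2823 to 8571 CPM in NR tumours (median 6705), a log2 change of −0.44 (SE 0.23, edgeR adjusted p = 0.779). It was −0.83 without the tumours with other tissue and −0.22 without anti-PD-1 replicate 12. mt-Co1 and mt-Nd6 went the other way, with log2 changes of 0.31 and 0.48, or 0.06 and −0.02 without anti-PD-1 replicate 14. mt-Nd5 and mt-Nd2 had −0.20 and −0.08. Of the 7 members 0 were called in edgeR's test, as were 0% of all genes, with 923 genes at an unadjusted p under 0.05. The difference between the R to NR changes under the combination and under anti-PD-1 was −0.28 (SE 0.42) for mt-Nd4 and −0.15 (SE 0.31) for mt-Cytb. Both turned positive without the tumours with other tissue, at 0.28 and 0.29. There were 0 of 7 members and 0% of all genes called by edgeR, and 329 genes at an unadjusted p under 0.05.

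Other measures moved with the label. The 20 tested genes of the hypoxia and glycolysis list were all higher in R than in NR combination tumours (median log2 change 0.97, 0 called by edgeR), and the list averaged 6.38 ± 0.77 log2 CPM in R and 5.59 ± 0.19 log2 CPM in NR tumours. Under anti-PD-1 it averaged 7.02 ± 1.37 log2 CPM in R and 5.99 ± 0.69 log2 CPM in NR tumours. The muscle list averaged 2.04 ± 2.51 log2 CPM in R (−0.34 to 6.30) and 0.39 ± 1.60 log2 CPM in NR combination tumours (−0.61 to 2.79), with 24 of 24 markers higher in R, 0 called by edgeR and no marker at 0 throughout either group. Their summed level was 79.9 to 4450.4 CPM in R and 69.8 to 357 CPM in NR tumours. The adipocyte list averaged 1.31 ± 0.95 log2 CPM in R and 0.11 ± 0.27 log2 CPM in NR tumours, with 8 of 8 tested markers higher, 0 called by edgeR, a summed level of 66.1 to 447 CPM in R and 77.2 to 100.1 CPM in NR tumours, and Lep at 0 in all 4 NR tumours. Without the tumours with other tissue the log2 change of mt-Nd4 under the combination was −0.81. The part of oxygen supply or of admixed tissue in these differences was not tested.

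Within each label mt-Nd5 was also higher in the combination than with anti-PD-1. These are the same combination tumours that chose the genes, so neither the order nor the p-values are independent support. Among NR tumours its log2 change was 0.94 (SE 0.26, edgeR adjusted p = 0.613), and among R tumours 0.75 (SE 0.29, edgeR adjusted p = 0.658). In NR tumours, all 4 of the combination were above the anti-PD-1 median and 2 above the highest of 13. In R tumours, 8 of 12 were above the highest of the 4 anti-PD-1 tumours and 2 were below the lowest. mt-Nd2 differed by 0.93 (SE 0.38) among NR tumours and 0.41 (SE 0.42) among R tumours, and mt-Co1 by 0.56 (SE 0.22) and 0.24 (SE 0.24). Among R tumours mt-Nd2 differed by 1.02 without the tumours with other tissue and by −0.04 with the ribosomal protein share as a covariate, with which mt-Nd5 differed by 0.40. Neither contrast had a member called by edgeR, where 0.0281% of all genes were called among NR tumours and 0% among R tumours, with 816 and 1051 genes at an unadjusted p under 0.05.

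The 7 transcripts fell into sets that varied together from tumour to tumour. Over 49 tumours, mt-Nd1 and mt-Cytb had a Pearson r of 0.86 (Spearman rho 0.80) between their log2 CPM, and mt-Nd4 and mt-Cytb 0.75 (rho 0.76). mt-Nd2 and mt-Nd5 had 0.90 (rho 0.85), mt-Nd5 and mt-Nd6 0.67 (rho 0.68), mt-Nd5 and mt-Co1 0.64 (rho 0.57) and mt-Nd6 and mt-Co1 0.70 (rho 0.69). mt-Nd1 had little relation to members of the other set: 0.07 with mt-Nd5 (rho 0.05), 0.10 with mt-Nd2 (rho 0.06) and −0.25 with mt-Co1 (rho −0.19). mt-Nd4 stood between the sets, with 0.64 to mt-Nd2 and 0.52 to mt-Nd1. These are descriptions over tumours that share their libraries, with depth and normalization common to both genes. Taken as deviations from the treatment means, mt-Nd1 and mt-Cytb had 0.87, mt-Nd2 and mt-Nd5 0.89 and mt-Nd1 and mt-Nd5 0.08, so the pattern was also there once the treatment means were removed.

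The mitochondrial ribosomal RNAs joined the set of mt-Nd5. mt-Rnr1, the small ribosomal RNA, had 1830 to 25443 CPM in combination tumours and 2605 to 8472 CPM in vehicle tumours, and its log2 change was 1.37 (SE 0.40) against vehicle and 0.85 (SE 0.32, edgeR adjusted p = 0.166) against anti-PD-1. Its r was 0.84 with mt-Nd6, 0.76 with mt-Nd5 and 0.88 with mt-Rnr2, the large ribosomal RNA. mt-Rnr2 had −0.54 with mt-Nd1. The ribosomal RNAs took 3.80% ± 2.10 of all counts in combination tumours and 2.14% ± 0.81 in vehicle tumours.

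**Figure D4:**
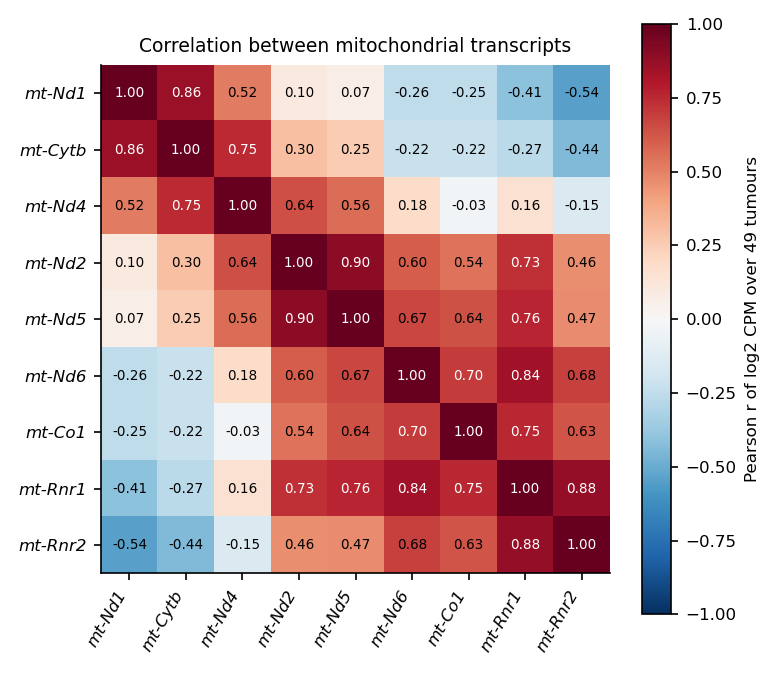
Pearson r of log2 CPM between each pair of mitochondrial transcripts over 49 tumours. mt-Nd1 and mt-Cytb (0.86) form one group and mt-Nd2, mt-Nd5, mt-Nd6, mt-Co1 and the ribosomal RNAs another, with 0.07 between mt-Nd1 and mt-Nd5.

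Runs of A inside an RNA can bind the oligo(dT) primer of such an assay, and they are described here for the transcripts of both sets. Whether reads began at them was not tested. The longest run was 6 A in mt-Nd1, 8 in mt-Nd2, 7 in mt-Nd4, mt-Nd5 and mt-Co1, 5 in mt-Cytb and 3 in mt-Nd6. It ended 82 bases before the 3′ end in mt-Nd1, 892 in mt-Nd2, 923 in mt-Nd5, 750 in mt-Co1 and 1311 in mt-Nd4. Of the ribosomal RNAs, mt-Rnr1 had a longest run of 5 A. mt-Rnr2 had a longest run of 7 A, 1181 bases before its 3′ end, and 4 runs of 6 A or more. The longest runs of 4 of these genes are shown with 20 bases on each side, the run in capitals. mt-Nd2 (chrM:3914-4951, plus strand) and mt-Nd5 (chrM:11742-13565, plus strand) went together, mt-Nd1 (chrM:2751-3707, plus strand) did not follow them, and mt-Nd6 (chrM:13552-14070, minus strand) followed mt-Nd5 with no run of 6 A or more.
mt-Nd2: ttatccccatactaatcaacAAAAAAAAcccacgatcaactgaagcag
mt-Nd5: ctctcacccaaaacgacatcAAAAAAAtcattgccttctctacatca
mt-Nd1: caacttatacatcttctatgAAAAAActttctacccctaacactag
mt-Nd6: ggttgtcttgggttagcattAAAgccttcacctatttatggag

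The sets also differed in how they moved with the make-up of the library. The share of counts in cytosolic ribosomal protein genes was 7.15% ± 1.38 in combination tumours, 8.41% ± 1.18 in anti-PD-1 tumours, 7.98% ± 1.47 in celecoxib tumours and 8.87% ± 1.25 in vehicle tumours. Over 49 tumours this share had an r of −0.65 with mt-Nd5, −0.67 with mt-Nd6, −0.55 with mt-Co1 and −0.52 with mt-Nd2, but 0.52 with mt-Nd1, 0.33 with mt-Cytb and 0.00 with mt-Nd4. Within treatments, mt-Nd5 had −0.67 among combination, −0.56 among anti-PD-1 and −0.74 among celecoxib tumours, but 0.37 among vehicle tumours. mt-Nd1 had 0.56, 0.50, 0.90 and 0.61 in the same 4 treatments. Without the 2 tumours farthest from the median share, the r over all tumours was −0.64 for mt-Nd5 and 0.44 for mt-Nd1. Shares and levels come from the same libraries, and the part of this library difference in the higher mt-Nd5 of combination tumours was not tested beyond the covariate fits. With this share as a covariate, chosen after seeing the data, the changes of the combination against vehicle were 0.79 for mt-Nd5, 0.67 for mt-Nd2, 0.50 for mt-Co1 and 0.00 for mt-Nd6, but 0.54 for mt-Cytb and 0.31 for mt-Nd1.

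**Figure D5:**
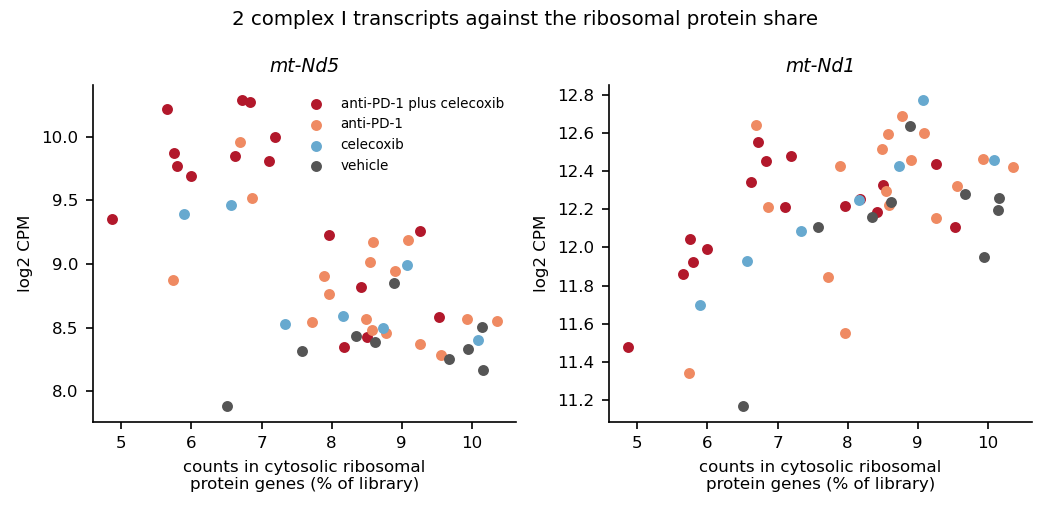
Level of mt-Nd5 and of mt-Nd1 (log2 CPM) in each tumour against the percent of its counts in cytosolic ribosomal protein genes, coloured by treatment. mt-Nd5 is lower where the share is higher (r −0.65 over 49 tumours) and mt-Nd1 is higher (r 0.52).

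Further library measures are given for single members. The share of counts in nuclear-retained RNAs had an r of −0.72 with mt-Nd1 and −0.63 with mt-Cytb, but 0.01 with mt-Nd5. The number of genes expected at the depth of the shallowest library had −0.57 with mt-Nd5 and −0.60 with mt-Nd2. Total count had −0.21 with mt-Nd5 and 0.15 with mt-Nd1. The muscle list had −0.15 and the T cell list 0.06 with mt-Nd5. The hypoxia and glycolysis list had −0.53 with mt-Cytb and −0.46 with mt-Nd4. Each library name also carries a number, whose meaning is not given. In certain runs of neighbouring numbers, picked after seeing the data, every log2 ratio of mt-Nd5 to mt-Nd1 lay between −3.05 and −1.64. These runs held celecoxib, anti-PD-1 and many combination tumours, but no vehicle tumour. Outside them only combination replicates 1 and 5 lay in that range (−2.99 and −2.49). The part of this number in the treatment differences was not tested.

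The nuclear-encoded subunits of the same complexes had negative median changes in the combination. The mitochondrial members were chosen by their change in these combination tumours, so their difference from the nuclear subunits is only a description. Against anti-PD-1, 4 of 36 tested complex I subunits had a positive change (median −0.19), 0 of 9 of complex III (median −0.17), 2 of 15 of complex IV (median −0.13) and 1 of 18 of complex V (median −0.21). None was called by edgeR, and 8, 1, 1 and 7 of them had an unadjusted p under 0.05. Of all 13726 genes, 0.503% were called by edgeR and 2359 had an unadjusted p under 0.05. The median of the 7 mitochondrial members was 0.48 in the same contrast, with 5 of 7 positive, and that of all genes was near 0. Against vehicle, the median was −0.20 for complex I, −0.12 for complex III, −0.07 for complex IV and −0.16 for complex V, with 0 called in each. The mean over the nuclear subunits was 6.76 ± 0.24 log2 CPM in combination tumours, 6.93 ± 0.23 in anti-PD-1 tumours, 6.85 ± 0.30 in celecoxib tumours and 6.91 ± 0.23 in vehicle tumours. Over 49 tumours it had an r of 0.62 with mt-Nd1 and 0.40 with mt-Cytb, but −0.57 with mt-Nd5, −0.51 with mt-Nd2 and −0.73 with mt-Nd6.

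Among nuclear genes that maintain and express the mitochondrial genome, few passed the test. Of 11 tested genes of mitochondrial DNA replication, 1 was called between combination and anti-PD-1, where 0.503% of all genes were. This was Polg, the catalytic subunit of the mitochondrial DNA polymerase, with 30.3 ± 5.64 CPM in combination tumours and 39.7 ± 5.42 CPM in anti-PD-1 tumours (log2 change −0.39, SE 0.08, edgeR adjusted p = 0.0152). None of 12 genes of mitochondrial transcription was called, among them Tfam, which packages and activates the genome (−0.11, SE 0.09), and Polrmt, its RNA polymerase (−0.25, SE 0.11, edgeR adjusted p = 0.223). None of 22 genes of mitochondrial RNA processing was called either. They include Lrpprc, which stabilises mitochondrial mRNAs (−0.10, SE 0.15), and Mtpap, their poly(A) polymerase (−0.17, SE 0.10). Of 75 mitochondrial ribosomal protein genes, 11 had a positive change and 1, Mrpl42, was called (−0.33, SE 0.08, edgeR adjusted p = 0.0481). One endothelial marker, Robo4, was also called in this contrast (−0.91, edgeR adjusted p = 0.0336). The 79 cytosolic ribosomal protein genes had a median of −0.22, with 0 called. Of the other genes of the mitochondrial chromosome, 10 were tested, 10 had a positive change (median 0.39) and 0 were called.

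The nuclear genes most like the mean of the members in their pattern over tumours were sought among 8899 genes with a mean of 10 CPM or more. The mean of the members weights each of the 7 equally, also the low mt-Nd6, and joins members with little relation to each other, such as mt-Nd1 and mt-Nd5. With the mean log2 CPM of the 7 members, Siah1b, a ubiquitin ligase, had the highest r (0.83), followed by Nup93 (0.83), a nuclear pore protein, Ak6 (0.82), a nuclear adenylate kinase, Smarcc2 (0.81) and Dynlrb1 (0.81). Zfyve27, a protein of the endoplasmic reticulum, had the lowest (−0.81), followed by Suox, the mitochondrial sulfite oxidase (−0.75), Ndufs7, a nuclear-encoded complex I subunit (−0.75), Mrpl14 (−0.75) and Lrpap1 (−0.75). For mt-Nd5 alone the highest were Hip1, an endocytic adaptor (0.85), and Ak6 (0.84), and the lowest Zfyve27 (−0.85) and Tars2, the mitochondrial threonyl-tRNA synthetase (−0.81). For mt-Nd1 the highest were Ppic, a cyclophilin (0.81), and Asf1b, a histone chaperone (0.80), and the lowest Crebrf (−0.79). None of the genes named for the mean was among the 5 highest or 5 lowest for mt-Nd1, mt-Nd4, mt-Nd6, mt-Co1 or mt-Cytb. In the 37 tumours without other tissue, Nup93 (0.88) and Siah1b (0.87) were again among the 5 genes with the highest r to the mean of the members.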

How the data were processed

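The authors demultiplexed with bcl2fastq, aligned with STAR, counted with featureCounts and used limma, per the submitters' processing notes, which name mm10 and GRCm38. The sources used here do not give versions, the annotation, the strand setting or the treatment of multiply aligned reads. They deposited raw counts for 39179 genes, and a log2 table of 16559 genes whose deposited log2 values equal log2(count + 0.5) minus a constant within each library (largest spread 9.99e-09). That table was used only for this check.

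From the counts, 13726 genes (treatment fit) and 14247 genes (treatment by response fit) passed filterByExpr and were tested with edgeR 4.0.16 (TMM, robust quasi-likelihood, all 49 tumours), with Benjamini-Hochberg adjustment over all of them and a limit of 0.05. Log2 CPM used a prior count of 2. The methods were tested on simulated data. Copies were sought with blastn 2.17.0. Precision follows the depth given in the report. Tumours were marked as holding other tissue where the muscle list averaged over 3, or the skin or adipocyte list over 5, log2 CPM. Alternatives were DESeq2 1.42.0, limma 3.58.1 (voom), RLE scaling, other filters, covariates and left-out tumours. Named genes were all members, the other mitochondrial protein and rRNA genes, the called genes of each list and the 5 most and 5 least like the mean of the members. The members and lists were chosen with earlier results of these data known. The covariate of the cytosolic ribosomal protein share was chosen after seeing the data.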

Additional observations from a re-analysis of the deposited data

Results flagged for a closer look

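One value stood far from the others of its group. mt-Nd1 in vehicle replicate 6 was 11.17 log2 CPM, against 11.95 log2 CPM in the next lowest vehicle tumour (2298 and 3954 CPM), a gap of 0.532 of the range of the 9 vehicle tumours where the 95% limit of Dixon's test is 0.493. It was the only flag among 36 groups tested, and chance flags about 1 in 20. The same tumour had the highest adipocyte list mean of all 49, 5.51 log2 CPM, and its part in the low mt-Nd1 was not tested. Without this tumour the log2 change of mt-Nd1 for the combination against vehicle was −0.03, beside 0.05 with it.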

How the results depend on the processing

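For the combination against vehicle, the contrast that chose the genes, the count of members called is a description: it was 1, and it was 3 with the muscle list as covariate, 3 without the 12 tumours with other tissue, 3 in DESeq2 (mt-Co1, mt-Nd2 and mt-Nd5), 0 with the cytosolic ribosomal protein share as covariate and 1 to 3 over 25 fits without 1 tumour. For the combination against anti-PD-1 it was 1, and it was 0 with no filter on low counts (mt-Nd5 adjusted p 0.0611), 0 with only the groups compared (0.0908), 0 in limma-voom (0.0606), 0 with the ribosomal protein share as covariate (0.677), 2 in DESeq2 (mt-Co1 and mt-Nd5) and 0 to 2 over 33 fits without 1 tumour. The cause of these changes was not tested. In the other 9 comparisons it was 0 in edgeR and in every alternative run, DESeq2 and limma-voom included. No called change turned round. Small changes did change sign, such as mt-Nd2 in the difference of the celecoxib effects (17 of 58 settings) and mt-Co1 for R against NR under the combination (13 of 25). No paired analysis was possible because the labels give no replicate numbers shared between treatments. mt-Nd6, at 1 to 134 counts, is limited by depth, and 4 R or 4 NR tumours limit the response contrasts.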
